A study of Mus musculus with 3 samples.

Results

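Peaks of Ago2 HITS‐clip that ran across the boundary between a coding exon and an intron were examined in N2A cells, a mouse neuroblastoma line that grows in culture. The peak table lists a start, a stop, a strand and a score for every peak of each library, and the peaks described here were chosen by their width, strand and position, measured values that are therefore given as a description. A peak was taken when it was 200 nt wide or less and when its central part, what remains after 30 nt are removed from each end, held at least 1 nt on either side of an annotated boundary on the strand of the gene. Boundaries were those of coding exons of protein-coding genes in GENCODE M21 on mouse build GRCm38, 367953 in all, of which 182978 were 5′ splice sites (exon end, intron start) and 184975 were 3′ splice sites (intron end, exon start). In total 12961 of 2039384 peaks met this rule, 2090 of 711377 in replicate 1, 3442 of 498071 in replicate 2 and 7429 of 829936 in replicate 3.

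All 3 libraries came from cells under basal conditions and form 1 group, so no condition is compared. Per the labels, about 60000000 cells per sample were crosslinked with ultraviolet light once at 400 and 2 times at 200 mJ per square cm, and Ago2 was precipitated with a monoclonal antibody. Nothing states that the replicates were separate cultures, and the spread between them may be technical. Read depth is unknown, because the table holds peaks and no reads. Of 14 neural marker genes, 9 had an exonic peak of 86 to 200 nt in all 3 libraries, among them Map1b (56, 63 and 90 peaks in replicates 1, 2 and 3) and Elavl4 (10, 27 and 25), while Dcx and Nefl had 0 in each. Of 22 markers of other cell types, 3 had such peaks in all 3 libraries (among them Ptprc, with 11, 6 and 10), and the haemoglobin, albumin and muscle creatine kinase genes had 0 in each.

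Introns are removed from a transcript by the spliceosome, which recognises GT at the 5′ end and AG at the 3′ end of nearly all introns, and an RNA that still spans a boundary is an unspliced or partly spliced transcript, or a spliced one of another form in which the same bases are exonic. Ago2 carries miRNAs and acts mainly on mature mRNA in the cytoplasm. A mirtron is a special case in which a short intron, once spliced out, folds into a hairpin and becomes a miRNA precursor, so that 1 end of the mature miRNA lies at the splice site itself. A short intron may also lie whole within the span of a peak, and in that case the start and the stop do not say whether reads lay inside the intron or on the exons at both of its ends.

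The sequences that carry the results below fall into a set of introns and a set of splice sites with miRNAs, all read from GRCm38.p6 or the RefSeq miRNA table of that build, 5′ to 3′ on the strand of the gene. The first set holds the only 3 introns that lay whole inside a central part in all 3 libraries, with the intron in capitals and 10 nt of exon on each side. They are intron 16 of Tmem131 (chr1:36825337-36825438, minus strand), intron 3 of Ndufv2 (chr17:66089339-66089440, minus strand) and intron 17 of Usp34 (chr11:23370345-23370453, plus strand).
Tmem131: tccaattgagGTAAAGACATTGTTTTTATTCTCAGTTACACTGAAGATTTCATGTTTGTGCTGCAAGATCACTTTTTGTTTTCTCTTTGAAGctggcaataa
Ndufv2: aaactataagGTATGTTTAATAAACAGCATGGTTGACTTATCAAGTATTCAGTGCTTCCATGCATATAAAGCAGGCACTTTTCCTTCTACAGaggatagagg
Usp34: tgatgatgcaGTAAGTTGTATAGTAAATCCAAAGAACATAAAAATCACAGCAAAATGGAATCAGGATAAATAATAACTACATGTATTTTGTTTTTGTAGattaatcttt

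The second set holds 3′ splice sites with an annotated miRNA on the intron side that were crossed in all 3 libraries. Each line gives the span of the central parts of the 3 libraries together, with exon bases in capitals, for Sap18 (chr14:57798466-57798492, plus strand), Dennd4b (chr3:90270191-90270218, plus strand) and Rcan3 (chr4:135416593-135416632, minus strand).
Sap18: ctgactccctgcttctccgcagACCTG
Dennd4b: tgacctgtggctcctctcccagATGTCT
Rcan3: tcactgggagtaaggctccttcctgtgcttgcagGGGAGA
The mature miRNAs at these sites are miR-3077-3p (chr14:57798466-57798487), miR-7012-3p (chr3:90270191-90270212) and miR-700-5p (chr4:135416601-135416622), shown with the seed, bases 2 to 8, in capitals. They share no seed with each other.
miR-3077-3p: cUGACUCCcugcuucuccgcag
miR-7012-3p: uGACCUGUggcuccucucccag
miR-700-5p: uAAGGCUCcuuccugugcuugc

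Peaks across boundaries were a small part of each library, and their share differed between libraries by more than counting error. Of peaks of 200 nt or less they made up 0.308% (95% interval by Wilson's method, 0.295% to 0.321%), 0.742% (0.717% to 0.767%) and 0.938% (0.917% to 0.960%) in replicates 1, 2 and 3, where the intervals cover counting error only. They lay in 1775, 2515 and 3782 genes. A 5′ splice site alone was crossed by 912, 1273 and 2947 peaks, a 3′ splice site alone by 1064, 1805 and 4029 peaks, and a whole intron was spanned from end to end by 108, 353 and 403 peaks. The median width of the members was 88, 98 and 102 nt, beside 82, 84 and 84 nt for all peaks of 200 nt or less. The rule favours this, since a wider central part has more room to hold a boundary.

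The same rule was applied to the strand opposite the gene to see how many peaks cross a boundary position without coming from the gene's transcript. Opposite-strand crossings numbered 862, 547 and 782, so that crossings on the gene's strand were 2.42, 6.29 and 9.50 times as many (mean log2 ratio 2.39 ± 1.01, SD, n = 3). All 3 libraries had more on the gene's strand, and the exact sign-flip permutation test over libraries, two-sided, gave p = 0.25, the smallest value that 3 libraries allow here and in every test below. The ratio depended on width. Among peaks of 85 nt or less it was 1.33, 1.88 and 2.05, whereas among peaks of 86 to 200 nt it was 7.07, 24.4 and 29.4, so opposite-strand peaks came closest to the members in the narrow class of replicate 1, with 698 beside 930. Of the opposite-strand peaks, 9.54% had their midpoint in a gene on their own strand.

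**Figure D1:**
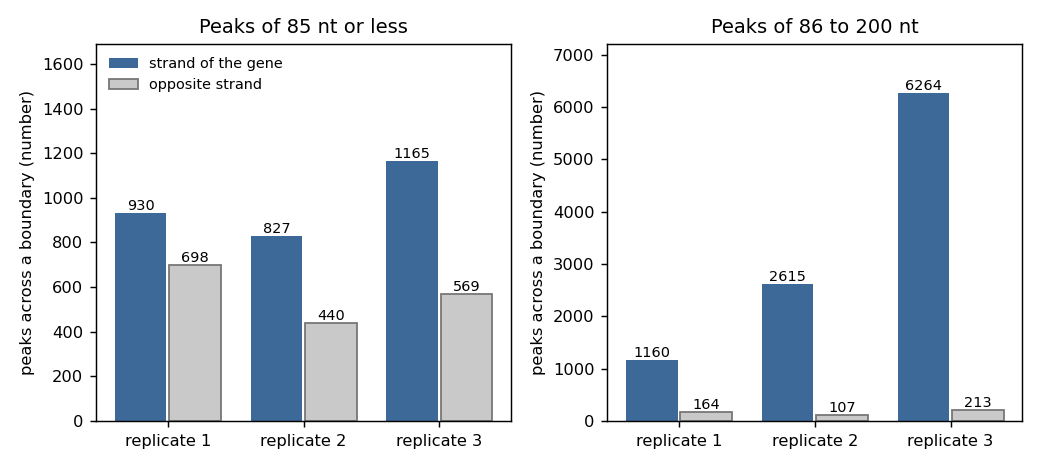
Number of peaks across a coding exon-intron boundary on the strand of the gene (blue) and on the opposite strand (grey) in each library, for peaks of 85 nt or less (left) and of 86 to 200 nt (right), each bar labelled with its count. Among wide peaks the gene's strand held 1160, 2615 and 6264 against 164, 107 and 213, and among narrow peaks the bars lie much closer together.

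The central parts reached unevenly over the boundary. The median length of the central part on the exon side was 15, 23 and 22 nt, and on the intron side 13, 11 and 17 nt. In 16.1%, 25.6% and 17.6% of the pairs of a peak and a boundary the intron side was only 1 or 2 nt, while an exon side of 1 or 2 nt was found in 6.63%, 2.97% and 3.51%. A further 1493 central parts ended exactly at the boundary with all bases on the exon and are just outside the rule, beside 1235 with 1 nt and 1506 with 2 nt of intron just inside it. The table holds 412 members wider than 190 nt, and 381 crossing peaks above 200 nt and up to 210 nt that the rule left out. With at least 10 nt required on each side, 674, 1202 and 3432 pairs remained, which was 3.90, 11.3 and 18.7 times the number on the opposite strand.

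The number of central parts that stopped at a position dropped steeply from the exon to the intron. At 5′ splice sites of introns over 140 nt, 641 central parts per position ended 0 to 2 nt past the boundary, 167 per position ended 3 to 5 nt past it, and 106.1 per position ended 6 to 12 nt past it, with all libraries added together. Before the boundary, 619 per position ended 12 to 6 nt inside the exon, so the fall came within a few nt after the exon end. At 3′ splice sites the mirror image was seen for the beginnings of central parts. There, 179 per position began 12 to 6 nt before the exon, 321 began 5 to 3 nt before it and 633 began from 2 nt before it to its first base. Further inside the exon, 670 per position began at 3 to 5 nt and 649 at 6 to 12 nt, so beginnings were not concentrated on the splice site itself. On the opposite strand the same positions held 38 to 46.6 ends at 5′ splice sites and 38.6 to 51.3 beginnings at 3′ splice sites, with no step of that size at the boundary.

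A read that joins 2 exons can also be aligned a few nt into the intron where the intron and the exon across it have the same bases. That identity was measured for crossings with a short intron side. At 5′ splice sites with 1 nt of intron, the base equalled the first base of the next exon in 38.6% of 632 pairs beside 48.8% of all 5′ splice sites, and with 2 nt in 19.4% of 618 pairs beside 17.7%. At 3′ splice sites the shares were 69.8% of 603 pairs beside 80.5% for 1 nt, and 59.9% of 888 pairs beside 55.8% for 2 nt. For 3 nt they were 2.09% beside 4.61% at 5′ and 8.59% beside 17.9% at 3′ splice sites, and for 4 nt 0.472% beside 1.21% and 3.13% beside 4.71%. Identity was thus lower than among all boundaries for 1, 3 and 4 nt and slightly higher for 2 nt, with all libraries added together. Single libraries went the other way, replicate 3 for 2 nt at 5′ splice sites (16.3%) and replicate 2 for 4 nt at both (1.35% and 5.61%). Pairs were sorted by the exact length of the intron side while the other boundaries were not. These shares therefore cannot show whether identical bases add to the crossings. Of all pairs, 9.76% had an intron side of 4 nt or less that was identical in full, with no share for other boundaries beside it. How the reads of those pairs were aligned was not tested.

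**Figure D2:**
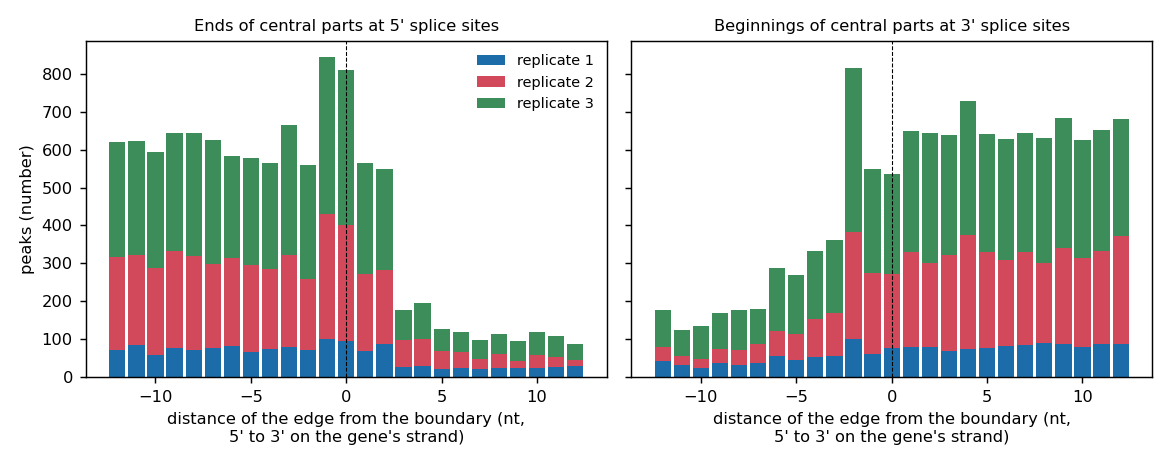
Number of central parts that end (left, 5′ splice sites) or begin (right, 3′ splice sites) at each distance in nt from the boundary, for introns over 140 nt on the strand of the gene, stacked by library. Ends drop after the second nt of the intron and beginnings rise from 2 nt before the exon.

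Coverage around boundaries showed the same step. It was counted at boundaries with an intron over 140 nt and an exon of 100 nt or more that lay in no exon of another transcript. In the exon 11 to 100 nt from 5′ splice sites, a position lay inside a central part at 117, 399 and 527 of every 10000 boundaries in replicates 1, 2 and 3, and in the intron at 51.4, 37.0 and 138. The exon thus exceeded the intron 2.27, 10.8 and 3.81 times, and at 3′ splice sites the factors were 2.29, 10.4 and 3.76. Replicate 2 had the steepest step and replicate 1 the shallowest at both kinds of splice site. Coverage was already lower close to the boundary within the exon, at 52.3, 80.3 and 166 per 10000 on the last exon base before the 5′ splice site beside 112, 358 and 473 at 25 nt before it. On the opposite strand the exon to intron factors were 0.859, 1.14 and 0.901 at 5′ splice sites and 0.779, 1.10 and 0.792 at 3′ splice sites, where the intron exceeded the exon in replicates 1 and 3.

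**Figure D3:**
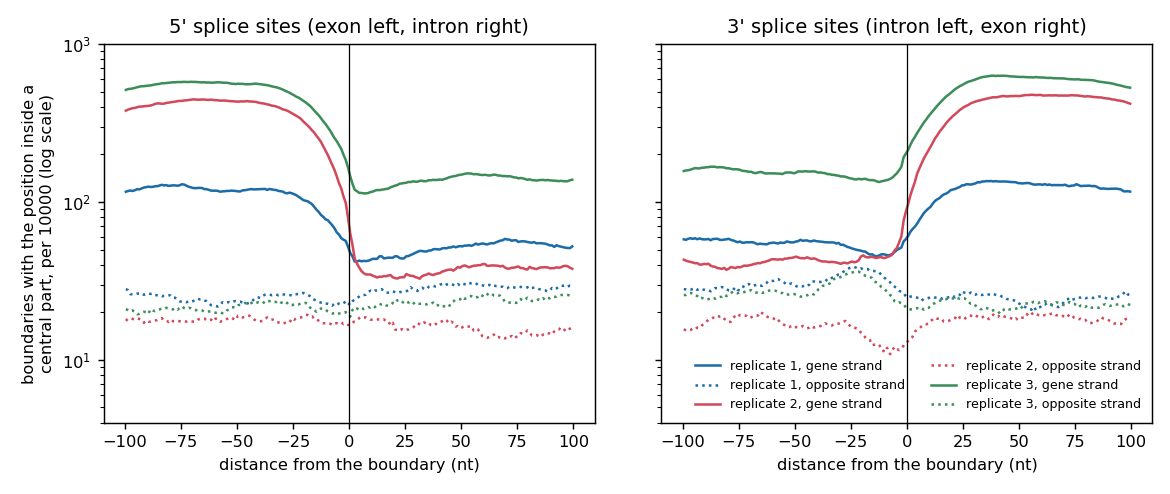
Share of boundaries, per 10000 on a log scale, at which a position lies inside the central part of a peak, against the distance in nt from 5′ splice sites (left) and 3′ splice sites (right), for the gene's strand (solid) and the opposite strand (dotted) in each library. Exons lie above introns on the gene's strand in all 3 libraries, and on the opposite strand the factors stay between 0.779 and 1.14.

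The 3′ splice site was crossed more often than the 5′ splice site. Per 1000 annotated sites, 5.65, 8.98 and 18.6 5′ splice sites and 6.49, 11.9 and 24.5 3′ splice sites were crossed in replicates 1, 2 and 3. The ratio of 5′ to 3′ was 0.870, 0.758 and 0.762 (log2 −0.33 ± 0.11, SD, n = 3), below 1 in all 3 libraries, with p = 0.25 in the exact sign-flip test. The mean log2 ratio was −0.14 with 20 nt removed from each end of a peak and −0.21 with 10 nt required on each side.

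Boundaries were rarely crossed in more than 1 library. At least 1 library crossed 13325 of the 367953 boundaries (3.62%), at least 2 libraries crossed 660 (0.179%) and all 3 crossed 23 (0.00625%). On the opposite strand 2193 boundaries were crossed in any library, 65 in at least 2 and 8 in all 3. Of the 23 boundaries, 19 were 3′ splice sites and 4 were 5′ splice sites, in 20 genes. Of the 8 on the opposite strand, 1 was a 3′ splice site and 7 were 5′ splice sites. At 5′ splice sites, crossings in all 3 libraries were thus no more numerous on the gene's strand than on the opposite strand.

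Whether a member met any peak of another library, of 200 nt or less and on the same strand, is a looser measure of recurrence that its own position did not fix. In the 3 libraries 44.2% ± 3.82 (SD, n = 3) of the members were met. Peaks lying wholly within coding exons were met at 51.0% ± 3.88 and peaks lying wholly within introns at 20.4% ± 4.34. The difference from the coding peaks was −6.79 ± 2.36 percentage points and that from the intron peaks 23.8 ± 0.826, each with the same sign in 3 of 3 libraries (exact sign-flip test, n = 3, p = 0.25 for each). The difference from the coding peaks shrank to −0.63 ± 1.35 when 10 nt were required on each side and to −0.55 ± 2.24 when 40 nt were removed from each end (exact p = 0.75 for both, n = 3), and was −3.55 ± 5.15 without replicate 2. The difference from the intron peaks was 11.2 ± 9.41 without replicate 2, 10.04 ± 9.44 without replicate 3 and 13.9 ± 1.65 when at least 50% of the peak had to be overlapped. Members that spanned an intron end to end were met at 55.7% ± 7.51 and those with 10 nt on each side at 50.4% ± 4.18. When at least 50% of the peak had to be overlapped, end-to-end members were met at 28.7%, 18.7% and 12.4% in replicates 1, 2 and 3, beside 28.6%, 31.3% and 23.7% of all members, so their place above the other members was lost. Coding peaks were met at 43.2%, 41.0% and 35.2% under that setting, so the difference between members and coding peaks did not shrink there. In the class of 86 to 200 nt the order was the same, with 49.6% for members, 56.6% for coding peaks and 25.8% for intron peaks.

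Introns of 71 to 100 nt were crossed most often in each library, although their interval overlapped that of the few still shorter introns in replicates 1 and 2. Among introns of 71 to 100 nt, 12.6, 38.5 and 50.5 of every 1000 boundaries were crossed in replicates 1, 2 and 3, beside 4.98, 7.80 and 19.5 for introns above 300 nt and up to 1000 nt, and 6.08, 9.26 and 21.3 for introns above 1000 nt and up to 10000 nt. On the opposite strand introns of 71 to 100 nt had 3.75, 2.31 and 3.13. Boundaries crossed in at least 2 libraries numbered 8.76 per 1000 at introns of 71 to 100 nt and 1.22 per 1000 at introns above 300 nt and up to 1000 nt, and 10 of the 23 boundaries crossed in all 3 libraries belonged to introns of 71 to 100 nt. A peak over a whole intron crosses both of its ends, and without those peaks 4.04, 9.0 and 15.8 per 1000 were crossed at introns of 71 to 100 nt. That was below the 4.98 and 19.5 of introns above 300 nt and up to 1000 nt in replicates 1 and 3 and above their 7.80 in replicate 2, and below the rate of introns above 1000 nt and up to 10000 nt (6.08, 9.26 and 21.3) in every library.

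**Figure D4:**
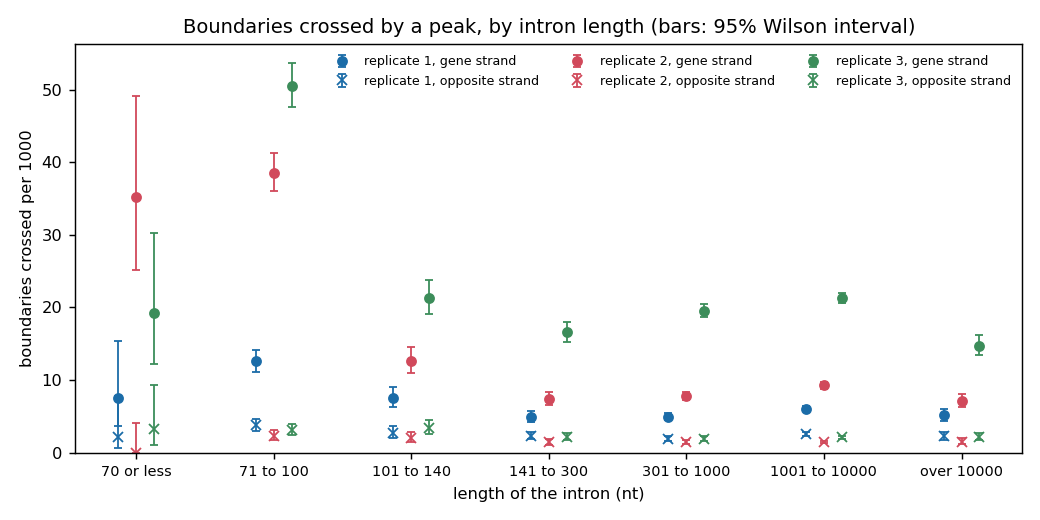
Boundaries crossed per 1000 annotated boundaries in 7 classes of intron length, for the gene's strand (filled circles) and the opposite strand (crosses) in each library, with 95% Wilson intervals for counting error only. Introns of 71 to 100 nt reached 12.6, 38.5 and 50.5 per 1000 on the gene's strand, above the classes over 140 nt in the same library.

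In numbers of introns, 114, 362 and 406 introns lay whole inside a central part, beside 25, 8 and 20 by the same rule on the opposite strand. Together they were 828 different introns in 647 genes, with a median length of 87 nt, and 51 of them were spanned in at least 2 libraries. When the intron was taken out, the exon bases left in these central parts had a median of 26.5, 35.0 and 36.0 nt. Central parts wholly within coding exons had a median of 26, 33 and 34 nt, and the quartiles were as close (22 and 36 beside 22 and 35 in replicate 1, and 29 and 43 beside 26 and 43 in replicate 3). The exon bases of an end-to-end peak are limited by the width of 200 nt, so the closeness of these values is a description, and whether reads covered the intron was not tested. Peaks that lay whole inside an intron of 71 to 100 nt were found in 129, 164 and 234 of 10511 such introns, and end-to-end peaks in 90, 309 and 362.

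The spanned introns were compared with unspanned introns of 138 nt or less in the same genes. Medians were taken over all introns of a set and not within each gene. With all libraries together, the spanned introns lay in 647 genes and the unspanned ones in 515 of these. The genes thus weigh differently in the 2 sets, and their part in the difference was not tested. The GC content of the spanned introns was lower, with medians of 50%, 52.2% and 54.3% beside 55.2%, 55.6% and 56.5%, a mean difference of −3.57 ± 1.55 percentage points (SD, n = 3). That difference had the same sign in all 3 libraries, with p = 0.25 in the exact sign-flip test. Their median lengths were 88.5, 86 and 86 nt beside 91, 94 and 92 nt, given without a test because a shorter intron fits more easily inside a central part of limited width. The dinucleotides GT and AG were found at the ends of 98.1% of the spanned introns and 98.2% of the unspanned introns of the same genes.

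The 10 introns named by rule, those spanned in the most libraries and then the shortest, had GC contents from 22.7% to 61.3%. The 3 introns spanned in all libraries were AT-rich. Tmem131, needed for collagen secretion, had an intron of 82 nt with 31.7% GC, and its central parts of 118, 118 and 126 nt reached 16, 16 and 19 nt into the upstream exon and 20, 20 and 25 nt into the downstream exon. The spans in replicates 1 and 2 had the same length on each side.

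Ndufv2, a subunit of mitochondrial complex I, had an intron of 82 nt with 36.6% GC. Its central parts covered 13, 25 and 27 nt of the upstream and 18, 24 and 18 nt of the downstream exon. Usp34, a deubiquitinase with 158 annotated boundaries, had an intron of 89 nt with 25.8% GC, covered with 22, 7 and 10 nt upstream and 8, 15 and 12 nt downstream. In Usp34, 41 of the boundaries were crossed in some library (11, 12 and 23 in replicates 1, 2 and 3), the highest number of any gene, and it also had 30, 55 and 58 peaks within its coding exons.

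The other 7 introns were spanned in 2 libraries. They lay in Nsmaf, which couples a tumour necrosis factor receptor to sphingomyelinase (75 nt, 22.7% GC), Edrf1 (75 nt, 41.3%), Arel1, a ubiquitin ligase (77 nt, 53.2%), Xrn2, the nuclear 5′ to 3′ exonuclease of transcription termination (78 nt, 35.9%), Kdm3a, a histone H3K9 demethylase (78 nt, 41.0%), Prpf19, a core spliceosome component (80 nt, 46.3%), and Gigyf1, which takes part in translational repression (80 nt, 61.3%). In Arel1 the central parts of replicates 1 and 3 were the same, 103 nt long with 12 nt of upstream and 14 nt of downstream exon. In the other 6 introns the spans of the 2 libraries differed.

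Boundaries crossed in all 3 libraries with at least 10 nt on each side numbered 7, in 5 genes. They were both ends of the introns of Tmem131 and Ndufv2, and the 3′ splice sites of Xrn2, Piwil2 and 4930503L19Rik. At the Xrn2 site the central parts held 17, 41 and 11 nt of the downstream exon. Replicates 1 and 2 spanned the whole intron of 78 nt and reached 9 and 5 nt into the upstream exon, and replicate 3 covered only the last 34 nt of the intron. Xrn2 had 4, 5 and 13 boundary peaks and 0, 7 and 9 coding peaks. The 4930503L19Rik site lay inside an exon of another transcript and held 17, 91 and 14 nt of exon and 24, 22 and 32 nt of intron.

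Piwil2 encodes a PIWI protein that binds piRNAs in germ cells. Its peaks were 84, 85 and 84 nt wide, with 13, 14 and 13 nt of exon and 11 nt of intron in every library, and the gene had 0 peaks within coding exons in all 3 libraries. The same pattern of narrow, nearly identical spans was found at further sites, 3 of which are named here after their values were seen. Yju2, a splicing factor, had a peak of 79 nt with 7 nt of exon and 12 nt of intron in every library and 0 coding peaks. Lrp2, the endocytic receptor megalin, had a peak of 88 nt with 9 nt of exon and 19 nt of intron in every library and 2, 0 and 4 coding peaks. Cndp1, a carnosine dipeptidase, was crossed at a 5′ splice site by peaks of 84, 85 and 82 nt and had 0 coding peaks. Sap18, described below with its miRNA, also had peaks of 85, 87 and 85 nt and 1, 0 and 0 coding peaks. These sites therefore recurred to within 3 nt in width in genes with few or no other peaks in coding exons, and the number of genomic positions to which their reads aligned is not given in the sources used here.

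At other sites crossed in all 3 libraries the spans differed more. At Fth1, the ferritin heavy chain gene, the central parts held 24, 60 and 21 nt on the exon side and 3, 30 and 65 nt on the intron side. The boundary lies inside an exon of another transcript, and how much of the intron side that exon holds was not measured. At Calr, which encodes the chaperone calreticulin, replicates 1 and 2 spanned the intron of 87 nt, whose end is exonic in another transcript, and ended 6 and 3 nt into the next exon, while replicate 3 lay mostly in that exon with 57 nt of exon and 5 nt of intron. Pbx2, a homeobox gene, was alike, with spans that reached 91 nt upstream of the splice site, past its intron of 83 nt, in replicates 1 and 2 and 2 nt in replicate 3.

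At introns over 1000 nt no span can hold the intron, and crossings there reach from the exon into the end of the intron. At Atp13a3, a polyamine transporter, the intron side was 23, 16 and 6 nt, and at Nop58, a core protein of box C/D snoRNPs, it was 28, 2 and 23 nt. Pdpk1, a kinase upstream of Akt, had 3, 31 and 23 nt at a boundary that lies inside an exon of another transcript. Pcmt1 had 4, 16 and 14 nt, and Ecpas, a proteasome adaptor, had 5, 2 and 6 nt. Of the 23 boundaries, 5 lay inside an exon of another transcript, beside 13.3% of all annotated boundaries.

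**Figure D5:**
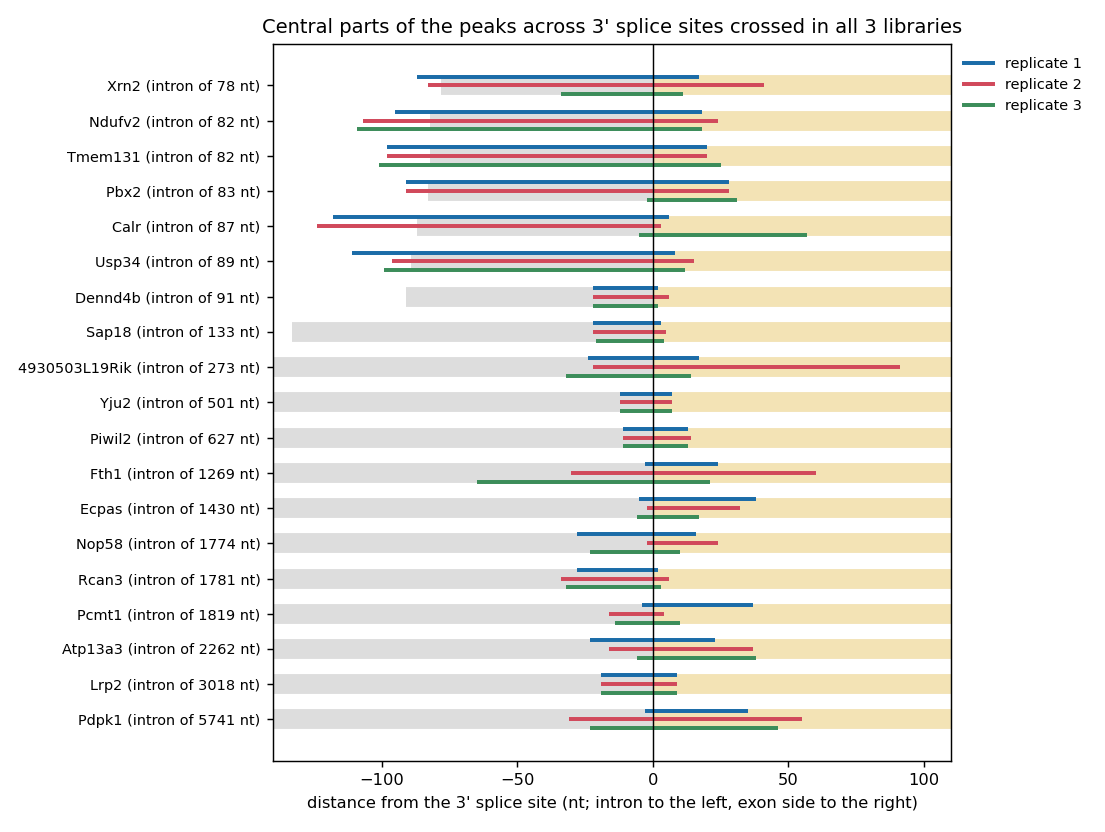
Central parts of the peaks at the 19 3′ splice sites crossed in all 3 libraries, 1 row per gene ordered by intron length, with the distance from the splice site in nt (grey, up to 140 nt of intron; yellow, exon side; coloured lines, the 3 libraries). Spans at Tmem131, Ndufv2 and Usp34 pass the far end of the intron in every library, while spans at Dennd4b and Sap18 begin 21 or 22 nt before the splice site and end 2 to 6 nt after it.

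A small group of members lay over annotated miRNAs at splice sites. In replicates 1, 2 and 3, 8, 54 and 48 members overlapped an annotated miRNA gene (0.383%, 1.57% and 0.646% of the members), 110 peaks over 81 miRNA genes, and 104 of these peaks crossed a 3′ splice site. The annotation holds 765 miRNA genes that overlap a coding intron, of which 219 have the end of the hairpin within 5 nt of a 3′ splice site and 22 have both ends of the hairpin at splice sites, as a mirtron that fills its intron would. Of those 219, 69 (31.5%) had a member peak, and of 539 with neither end of the hairpin near a splice site, 10 had one, a contrast that the rule fixes, since a member has to cross a boundary. Of the 81 miRNA genes, 3 were found in all libraries, 21 in 2 and 57 in 1.

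Of the 110 peaks, 70.9% had a central part of 19 to 30 nt, beside 32.4% of the other members. Narrow peaks were also common in the libraries at large, where 74.9%, 65.9% and 55.3% of peaks of 200 nt or less were 85 nt or less. On 97 of them the central part overlapped a mature arm by at least 15 nt, 82 times the 3p arm, which is the arm that ends at the 3′ splice site. In 57.7% of the 97 the first base of the central part was the first base of the mature miRNA, and in 77.3% it was within 2 nt. The last base lay past the annotated end of the miRNA by a median of 3 nt. Where the arm ends at the splice site the rule itself requires this, since a member holds at least 1 nt of exon.

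Peaks on mature miRNAs that were not members numbered 1032. Their central part began at the first base of the miRNA in 48.0% and within 2 nt in 67.6%, and it ended past the miRNA in 88.6%, by a median of 3 nt, although no rule required it of them. Of the peaks of 200 nt or less on the 219 hairpins, 42.9%, 44.9% and 47.1% reached the exon and so became members.

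At Sap18, a subunit of the splicing-linked ASAP complex, the central parts began at base 1, 1 and 2 of miR-3077-3p and ended 3, 5 and 4 nt into the exon. At Dennd4b, a Rab exchange factor, all 3 began at base 1 of miR-7012-3p and ended 2, 6 and 2 nt into the exon. In both the mature miRNA ends with the AG of the intron, as the printed sequences show. At Rcan3, a calcineurin regulator, the spans began 4, 10 and 8 nt before miR-700-5p and ended 2, 6 and 3 nt into the exon, and the Mir700 hairpin itself extends 44 nt past the splice site into the last exon.

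Among the miRNA genes found in 2 libraries, named after their values were seen, Mir1981 in the intron of 82 nt of Marc2 had separate peaks over both ends in each of those libraries. Its hairpin fills the intron from the first to the last base. Peaks over the 5p arm crossed the 5′ splice site with 1 and 6 nt of exon in replicates 2 and 3, and peaks over the 3p arm crossed the 3′ splice site with 3 nt of exon in both. The mature arms are miR-1981-5p (chr1:184822465-184822488, minus strand) and miR-1981-3p (chr1:184822409-184822429, minus strand), with seeds in capitals.
miR-1981-5p: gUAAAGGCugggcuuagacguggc
miR-1981-3p: cAUCUAACccuggccuuugac
At Akt1, the protein kinase gene, the peaks of replicates 2 and 3 began at base 1 of miR-6939-3p and ended 5 and 3 nt into the exon, and at Plod3, a lysyl hydroxylase, those of replicates 1 and 3 lay on miR-702-3p. Overlap with a snoRNA gene was found for 4, 0 and 2 members, among them Ncl with Snord82 and Rpl23a with Snord42a, each in 1 library.

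Crossed boundaries were compared with uncrossed boundaries of the same genes for 11 properties at each kind of splice site, 22 comparisons in all. Their exact sign-flip p was 0.25 at the lowest, 0.367 after Benjamini-Hochberg adjustment. An intron of 140 nt or less was found at 21.8% of crossed and 11.5% of uncrossed 5′ splice sites (difference 10.3 ± 4.40 percentage points, SD, n = 3) and at 19.2% and 11.5% of 3′ splice sites (7.73 ± 4.0). That is a description and no test, because a central part of limited width can span a short intron and so cross both of its ends. The differences were 4.62 and 3.57 with 20 nt removed from each end of a peak, 22.5 and 16.4 with 10 nt required on each side and 24.1 and 17.8 with 40 nt removed. Boundaries crossed on the opposite strand also had more such introns, by 4.14 ± 0.958 and 3.6 ± 0.927 percentage points.

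Crossed boundaries lay inside an exon of another transcript a little more often than their genes' other boundaries, 20.3% beside 17.4% at 5′ splice sites (difference 2.92 ± 1.95) and 20.5% beside 16.6% at 3′ splice sites (3.89 ± 1.48), in 3 of 3 libraries. Opposite-strand crossings showed excesses of 2.70 ± 2.48 and 2.82 ± 0.737 percentage points for the same property, close to those on the gene's strand. The adjoining 50 nt of exon had a lower GC content than the median of the gene's uncrossed boundaries at 58.6% of crossed 5′ splice sites and 56% of crossed 3′ splice sites, beside 50.3% and 54.4% on the opposite strand. First introns were less often crossed at the 5′ splice site, 4.79% beside 7.61% (−2.82 ± 1.11), in 3 of 3 libraries. The strength of the splice site, scored from the base frequencies of all annotated sites, was below the gene's median at 51.5% and 51.8% of crossed sites, and GT or AG was present at 98.5% and 99.6% of them, beside 98.7% and 99.6% of uncrossed sites.

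At gene level, 501 of 18382 genes with a coding boundary (2.73%) had a boundary peak in all 3 libraries, and 527 (2.87%) had the same boundary crossed in at least 2. The 501 genes had a median of 41 annotated boundaries, beside 14 for all genes, so the number of boundaries moved with the count. Gene lists were read against those shares and against the peaks within coding exons of the same genes. No gene of any list had a boundary crossed in all 3 libraries, and the list genes named below were chosen after their values were seen.

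The hnRNP proteins, which bind nascent transcripts and regulate splicing, had the highest share of genes with a recurrent boundary among the lists. Of 27 genes, with a median of 24 annotated boundaries beside 14 for all genes, 7 (25.9%) had a boundary crossed in at least 2 libraries and 5 had a boundary peak in all 3. They also had many coding peaks, with 20 of 27 showing one in all 3 libraries beside 19.3% of all genes. Per 100 coding peaks they had 28.0, 22.2 and 64.9 boundary peaks in replicates 1, 2 and 3, beside 18.7, 11.3 and 20.5 over all genes.

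Hnrnph1 had 4 such boundaries. Intron 10, of 91 nt and at a site that is exonic in another transcript, was spanned whole in replicates 1 and 2, with 23 and 17 nt of upstream and 5 and 9 nt of downstream exon. Hnrnpa2b1 had a 5′ splice site of an intron of 90 nt crossed in replicates 1 and 2, with 23 and 20 nt of upstream exon, where the span of replicate 1 passed the whole intron and that of replicate 2 held 28 nt of it. Ptbp2, the neuronal relative of the polypyrimidine tract binding protein, had 1 site of each kind at introns of 7081 and 3909 nt.

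Core spliceosome genes had 7 of 42 (16.7%) with a boundary crossed in at least 2 libraries, among them Prpf19, Prpf38b and Snrnp70 at introns of 80, 84 and 83 nt. Splicing regulators had 4 of 34 (Clk4, Rbm25, Rbm39 and Srsf6), of which Rbm39 was crossed at the 5′ splice site of an intron of 3422 nt with over 100 nt of intron side in replicates 2 and 3. Translation factors had 5 of 35 (Eef2, Eif3e, Eif4b, Eif4g2 and Eif4g3). Eif4g2, a translation initiation factor, had 3 such 5′ splice sites. Export and exon junction genes had 2 of 22 (Alyref and Nxf1). Per 100 coding peaks there were 24.8 boundary peaks in core spliceosome genes (20.8, 13.97 and 34.2 in replicates 1, 2 and 3), 22.8 in splicing regulators (18.8, 7.14 and 38.1), 21.9 in translation factors (26.1, 11.5 and 29.7) and 15.3 in export genes (14.3, 15.1 and 15.7), beside 16.6 over all genes (18.7, 11.3 and 20.5). Each of these lists was highest in replicate 3, as were all genes together. These lists also had more annotated boundaries per gene, with medians of 25.5, 18, 20 and 24.5 in the same order beside 14 for all genes, and 38.1% to 58.8% of their genes had a coding peak in all 3 libraries beside 19.3%.

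The remaining lists had 0 to 2 such genes each. The ribosomal proteins had 2 of 77 (Rpl8 and Rpl23), near the share of all genes, and only 58 coding peaks in all, so their 48.3 boundary peaks per 100 coding peaks rest on 28 boundary peaks and differed between libraries (42.1, 24.1 and 130). Ribosomal protein genes and Fth1 also have processed copies elsewhere in the genome, and how reads with several positions were placed is not given. The miRNA machinery had 0 of 16, beside 2.87% of all genes. It had 6.33 boundary peaks per 100 coding peaks, below the 16.6 of all genes, although 9 of the 16 genes had a coding peak in all 3 libraries. Per 1000 annotated boundaries 37.4 were crossed in some library, beside 36.2 for all genes, so the list was not low on that scale. The neuronal cytoskeleton had 0 of 41 and 10.5 per 100, the neural markers 1 of 14 (Syt1) and 6.83 per 100, neuronal RNA-binding proteins 2 of 26 (Elavl1 and Celf2; 7.69%) and 24.1 per 100 (14.3, 13.6 and 36.7 by library, so that only replicate 3 was well above all genes), and the markers of other cell types 0 of 22 and 19.2 per 100, on 5 boundary peaks. Per 1000 annotated boundaries, 57.0 were crossed in the neuronal cytoskeleton and 71.8 in the neural markers, above the 36.2 of all genes. Neuronal RNA-binding proteins had 83.8, ribosomal proteins 42.0 and markers of other cell types 11.1. The 2 scales thus placed the neuronal cytoskeleton and the neural markers on opposite sides of all genes.

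Elavl1, which stabilises AU-rich mRNAs, was crossed at the 5′ splice site of intron 4, of 6123 nt, with 22 and 32 nt of exon and 23 and 4 nt of intron in replicates 1 and 3. Syt1, the synaptic calcium sensor, was crossed at a 3′ splice site with 40 and 42 nt of exon and 3 and 4 nt of intron in replicates 2 and 3. In both genes most of the central part lay on the exon in 1 or both libraries.

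Matches to the seed sites of let-7, miR-9-5p, miR-15/16, the miR-17 family, miR-19, miR-21a-5p, miR-25/32/92 and miR-30 were counted in the central parts, a site being the 7 nt complementary to bases 2 to 8. Together the members held 0.623, 1.16 and 0.733 matches per 1000 nt in replicates 1, 2 and 3. Coding peaks held 0.938, 1.35 and 0.829 and intron peaks 0.539, 0.904 and 0.570, so the members lay between them in each library. The GC content of the central parts also lay between, at 44.0%, 46.7% and 42.9% for members, 47.3%, 48.4% and 47.9% for coding peaks and 38.3%, 39.9% and 37.3% for intron peaks. For miR-21a-5p alone the members held 2, 5 and 15 matches, or 0.0254, 0.0293 and 0.0377 per 1000 nt. That was below both coding peaks (0.0414, 0.0357 and 0.0493) and intron peaks (0.0753, 0.0626 and 0.0729) in each library, on few matches.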

How the data were processed

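HITS‐clip of Ago2 was performed on 3 samples of N2A cells. Per the labels and the submitters' processing notes, the authors used FastQC, cutadapt and STAR with build mm10. Versions, the peak caller, its threshold and its treatment of spliced and multiply aligned reads are not given in the sources used here. The deposited score has no stated unit, was 60 for 99.3% of peaks and was not used. Starts were counted from 0 (the lowest is −30), and peaks were taken to carry 30 nt of padding on each side. With that removed, peaks of the lowest width (79 nt) keep 19 nt. Read depth per sample is unknown, since the table holds peaks and no reads.

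Peaks were set against GENCODE M21 with Python 3.11.15, pandas 2.3.3 and pysam 0.24.0, and searches and comparisons were tested on simulated data. Libraries were compared by exact two-sided sign-flip permutation of 3 values, whose smallest p is 0.25. The boundaries named by rule were those crossed in all 3 libraries with at least 10 nt on each side, the 10 introns spanned in the most libraries and then the shortest, and list genes with a boundary crossed in all 3 libraries. The members and lists were chosen with earlier results of these data known. miR-124-3p was listed for the seed count but not counted.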

Additional observations from a re-analysis of the deposited data

How the results depend on the processing

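No alternative reversed the direction of a mean over libraries, but every test has p of at least 0.25 and none could pass a threshold with 3 libraries. The 18 results were recomputed under 204 combinations of result and alternative, of which 164 left a value with the same direction or within its limit and 40 moved it. No paired analysis was possible because all replicates belong to 1 group. The share inside an exon of another transcript has no value when only boundaries outside such exons are used.

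The mean number of boundary peaks per library, 4320, became 2644 with 5 nt and 1605 with 10 nt required on each side, 9776 with 20 nt and 1440 with 40 nt removed from each end, and 2766 to 5436 when 1 replicate was left out. Boundaries crossed in all 3 libraries, 0.00625% of those annotated, became 0.00326%, 0.0019%, 0.0345% and 0.0019% in that order of settings, 0.016% with peaks of up to 300 nt and 0.179% in at least 2 libraries. The genes holding them, 20, became 9, 5, 117 and 5, then 13 with peaks of 86 to 200 nt only, 44 with peaks of up to 300 nt and 527 with at least 2 libraries. With 1 replicate left out, the libraries that remained shared 0.0288% to 0.11% of boundaries and 89 to 343 genes.

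The median share of the central part on the intron side, 43.8%, became 61.6% with 5 nt and 64.1% with 10 nt on each side, 23.7% with 20 nt and 74.7% with 40 nt removed, and 63.5% with peaks of up to 300 nt. The mean number of introns spanned, 294, became 148 with 10 nt on each side, 126 with 40 nt removed and 746 with peaks of up to 300 nt. Recurrence, 44.2%, became 50.4% with 10 nt on each side, 51.7% with 40 nt removed, 48.4% with peaks of up to 300 nt, 27.8% when at least 50% of the peak had to be overlapped, 53.6% with peaks of any width in the other libraries (chosen after seeing the data), and 17.7% to 37.6% with 1 replicate left out. These settings change how many peaks or libraries can qualify. Without replicate 3, the library with the most members, recurrence was 17.7% and 89 genes were shared by the others.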
